A study of Homo sapiens with 16 samples.

Results

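Regions of the merged list of N6-methyladenosine (m6A) peaks were taken where their midpoint lay in the coding sequence of a long internal exon. Such an exon measured 400 nt or more and was neither the first nor the last exon of a protein-coding transcript tagged Ensembl canonical in GENCODE, and regions that touched the stop codon of such a transcript were left out. On chromosomes 1 to 22 and X, 2634 of 36970 merged regions met this rule, which is 7.12%. They lay in 2430 exons of 1977 genes, out of 4515 long internal coding exons in the annotation. Regions of 1 exon or of 1 gene share a transcript and are not independent of each other.

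The series compared C4-2B cells, an enzalutamide-sensitive prostate cancer line of LNCaP origin, with MDV-R cells, which were obtained from C4-2B by stepwise exposure to enzalutamide, an inhibitor of the androgen receptor. Both lines were labelled wild type and were harvested at day 3, and MDV-R was grown in medium with 5 µM enzalutamide, so that resistance, the history of the line and the drug in the medium cannot be told apart. MDV-R is a single derived line. For each line there were 4 replicates, each with an immunoprecipitated (IP) and an input library, which makes 16 libraries. The labels do not say whether replicates were separate cultures, so p-values measure the spread between these libraries. The sample titles of MDV-R include the name of a bladder cancer line as well, and groups were formed by the stated cell line. Of 10 prostate luminal marker genes all had a region, 9 of them in all 4 MDV-R lists and 6 in all 4 C4-2B lists. TRPM8 was the exception in MDV-R, with a region in 1 list of C4-2B and in none of MDV-R. Of 9 markers of urothelium or of the bladder line, UPK1A, UPK1B, UPK2, KRT5, TP63, CAV1 and AXL had no region, VIM was called in all 8 lists, and UPK3A had a region in 2 lists of C4-2B and 4 of MDV-R.

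m6A is laid down on nuclear RNA by the METTL3 and METTL14 methyltransferase at the sequence DRACH, most often as GGAC. Different reader proteins bind it and act on splicing, translation or decay of the RNA. It is known to gather near stop codons and in long internal exons. Exon junction complexes, which are left on spliced RNA close to each junction, are known to keep the methyltransferase away from short coding exons.

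The data are lists of peaks, 1 per IP library, each called by the authors over input. A region counted as called in a list when a peak of that list overlapped it. At each summit, the point of highest signal, 3 measures were used. The fold enrichment is the deposited ratio of IP to local background. The IP signal is the number of IP tags (reads kept by the authors) at the summit, and the local background is the number expected there from the input, both recovered from the deposited statistics and both given in multiples of the average background of the library. Neither is known where no peak was called. The recovered IP libraries held 0.317 to 0.412 M (mega) tags in C4-2B and 0.322 to 0.414 M in MDV-R. Input libraries held 0.308 to 0.431 M tags in C4-2B and 0.645 to 1.02 M in MDV-R without overlap (exact permutation p = 0.0286), so that depth of input and line cannot be told apart wherever the background enters a comparison. In these bulk libraries, fewer cells of a type and less RNA per cell cannot be told apart either.

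The 101 nt around the strongest summit are printed for some of the members named below, on the strand of the gene and with each GGAC in capitals (hg38). The printed windows are examples and do not show how often such windows hold a GGAC. The first set were members among the strongest in all 8 lists. Of windows not printed from that group, that of USP10 holds GGAC, and those of CHAF1A, GOLGA5, RAI1 and USP42 do not. GPATCH2 (chr1:217620053-217620153, minus strand) encodes a G-patch protein, NSD1 (chr5:177135572-177135672, plus strand) a histone H3 lysine methyltransferase, KMT2B (chr19:35720224-35720324, plus strand) another, and ZC3H18 (chr16:88577381-88577481, plus strand) a zinc finger protein that links the RNA cap to the nuclear exosome.
GPATCH2 exon 2: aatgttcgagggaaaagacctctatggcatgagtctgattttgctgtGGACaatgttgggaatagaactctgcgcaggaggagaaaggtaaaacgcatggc
NSD1 exon 2: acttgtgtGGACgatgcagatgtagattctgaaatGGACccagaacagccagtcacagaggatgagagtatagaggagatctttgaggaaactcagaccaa
KMT2B exon 3: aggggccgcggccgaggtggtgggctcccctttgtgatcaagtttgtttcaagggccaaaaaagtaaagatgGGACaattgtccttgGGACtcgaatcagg
ZC3H18 exon 2: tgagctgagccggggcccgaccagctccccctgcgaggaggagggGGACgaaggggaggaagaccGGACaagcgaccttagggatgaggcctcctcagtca

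The second set were members called in all lists of a single line. PGLYRP2 (chr19:15475776-15475876, minus strand), a peptidoglycan amidase, and IGF1R (chr15:98707791-98707891, plus strand), the receptor of insulin-like growth factor 1, were called in C4-2B alone. MYT1 (chr20:64207801-64207901, plus strand), a zinc finger transcription factor, and TENM2 (chr5:168248212-168248312, plus strand), a teneurin of the cell surface, were called in MDV-R alone. The IGF1R window holds no GGAC. Of the windows not printed from C4-2B alone, those of ALPK2 and PALMD hold GGAC, and those of CACNA1H, EPHA5, EPHA6 and GRIN3A do not. From MDV-R alone, those of AGT, BEST1, CREBBP, GALNT6, PBXIP1 and ZFHX2 are not printed and hold no GGAC.
PGLYRP2 exon 2: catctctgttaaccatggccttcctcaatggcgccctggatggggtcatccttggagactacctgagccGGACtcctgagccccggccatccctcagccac
IGF1R exon 2: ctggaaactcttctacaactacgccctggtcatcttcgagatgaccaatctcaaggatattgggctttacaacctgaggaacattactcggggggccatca
MYT1 exon 7: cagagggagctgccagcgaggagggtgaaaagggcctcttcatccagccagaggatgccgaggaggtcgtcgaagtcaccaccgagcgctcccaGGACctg
TENM2 exon 29: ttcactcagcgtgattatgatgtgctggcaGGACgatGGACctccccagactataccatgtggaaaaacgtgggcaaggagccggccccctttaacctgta

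The third set were members whose fold enrichment differed between the lines. GASK1A (chr3:43032485-43032585, plus strand), a Golgi-associated kinase-like protein, and XPO6 (chr16:28156217-28156317, minus strand), an exportin that carries actin out of the nucleus, were higher in MDV-R. NAV2 (chr11:19933614-19933714, plus strand), a neuron navigator protein, and XYLT2 (chr17:50353633-50353733, plus strand), a xylosyltransferase that starts the sugar chains of proteoglycans, were lower. The XPO6 window holds no GGAC, and that of XYLT2 holds 2. Of the windows not printed, those of PRUNE2, STARD9 and ZNF608 hold GGAC. Those of COLEC12, HJURP, ITPRID2, AHR, EMILIN1, HIVEP3 and SIRT4 do not.
GASK1A exon 2: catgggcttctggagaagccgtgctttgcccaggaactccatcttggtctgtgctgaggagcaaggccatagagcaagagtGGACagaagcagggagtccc
XPO6 exon 7: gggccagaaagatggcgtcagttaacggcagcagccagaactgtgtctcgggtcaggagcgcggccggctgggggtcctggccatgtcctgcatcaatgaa
NAV2 exon 7: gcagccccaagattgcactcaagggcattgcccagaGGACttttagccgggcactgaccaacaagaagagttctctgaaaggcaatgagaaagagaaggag
XYLT2 exon 2: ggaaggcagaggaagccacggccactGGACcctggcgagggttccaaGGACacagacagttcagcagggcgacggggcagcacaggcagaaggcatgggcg

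Internal coding exons held a region more often the longer they were. A region lay in 0.212% of exons under 100 nt, in 2.09% of those of 200 to under 300 nt and in 11.5% of those of 300 to under 400 nt. The share was 41.3% at 400 to under 600 nt, 58.4% at 600 to under 1000 nt, 65.6% at 1000 to under 2000 nt and 71.3% at 2000 nt or more. The shares were also taken over transcripts with another region called in all 8 lists, so that transcripts without peaks did not enter. There, 1.73% of the exons under 400 nt and 76.0% of those of 400 nt or more held a region, and the share reached 92.6% at 2000 nt or more. Per kb of exon, the regions were densest at 400 to under 600 nt, with 0.845 per kb, against 0.331 per kb at 2000 nt or more and 0.0581 per kb over all exons under 400 nt. Exon length chose the members, so these shares are a description and were not tested. No merged region was shorter than 265 nt, and regions were placed by their midpoint on the genome. An exon shorter than that could not contain a whole region. The part of this limit in the shares was not tested. Just outside the limit, 160 of 897 exons of 350 to under 400 nt (17.8%) held a region, and just inside it 172 of 568 exons of 400 to under 450 nt (30.3%) did. The regions on either side of the limit had mean list medians of 7.15 and 7.77 in fold enrichment, of 141 and 133 in IP signal and of 15.5 and 14.2 in local background, and GGAC within 50 nt of 49.5% and 49.95% of their summits.

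**Figure D1:**
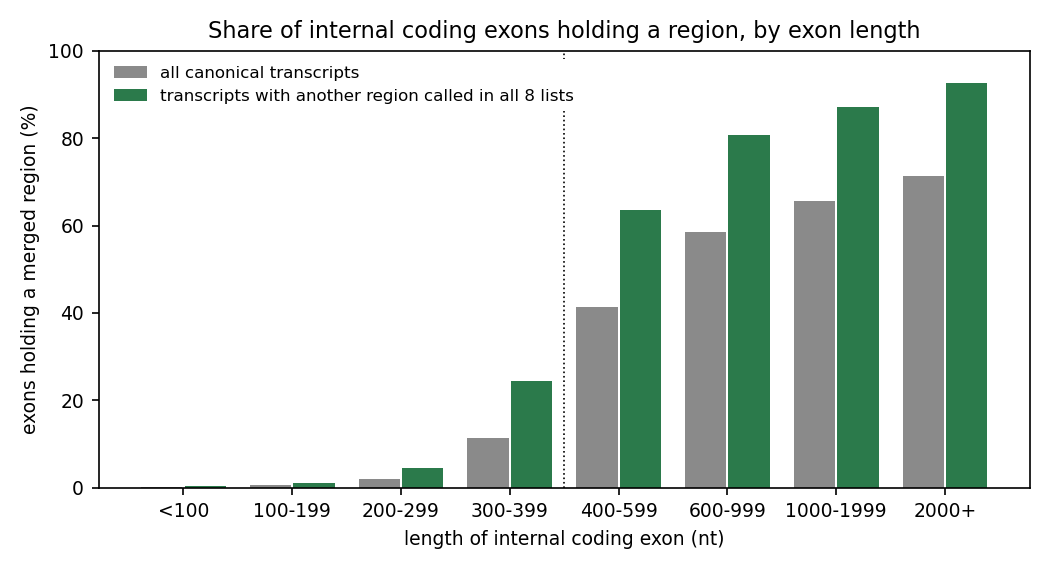
Share of internal coding exons of canonical transcripts that held a merged region (%, vertical axis) by exon length (nt, horizontal axis), for all transcripts (grey bars) and for transcripts with another region called in all 8 lists (green bars); the dotted line marks the limit of 400 nt. The grey bars rise from 0.212% under 100 nt to 71.3% at 2000 nt or more and the green bars from 0.448% to 92.6%.

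Exons that held a member had a median length of 761 nt, a GC content of 52.2% and made up 28.7% of the coding sequence of their transcript. The 423 long internal exons without a member, in transcripts with another region called in all 8 lists, had medians of 540 nt, 58.5% GC and 17.1% of the coding sequence. GGAC was about as dense in both, at 4.56 and 4.33 per kb, and DRACH was denser in the exons with a member, at 21.3 against 17.2 per kb. GGAC was missing from 118 of the 2430 exons that held a member (4.86%) and from 42 of those 423 without one (9.93%). Of the exons with a member, 24.7% were the second exon of the transcript and 12.7% the next to last, against 37.8% and 13.9% of those 423.

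Most exons, 2278 in number, held 1 member, 114 held 2, 26 held 3, 11 held 4 and 1 held 6. That exon was exon 11 of 15 of SRRM2 (6701 nt), which encodes a scaffold protein of nuclear speckles and splicing, and none of its 6 members was called in all 8 lists. The longest exons with 4 members were in SPEN (exon 11, 8176 nt), a transcriptional repressor, MAP1B (exon 5, 6502 nt) and MACF1 (exon 37, 5451 nt), which bind the cytoskeleton, and HIVEP1 (exon 4, 5981 nt) and HIVEP2 (exon 5, 5574 nt), which are zinc finger transcription factors. In the HIVEP1 exon, the members at chr6:12120024-12122177 and chr6:12125073-12125817 were called in all 8 lists, that at chr6:12122409-12122979 in 2 lists of C4-2B and 4 of MDV-R, and that at chr6:12123613-12124139 in 1 MDV-R list. The IP signal of the first was 174, 235, 215 and 271 in C4-2B replicates 1 to 4 and 220, 204, 219 and 211 in MDV-R. These were above the signals of the member at chr6:12122409-12122979, at 77.3 and 83.4 in C4-2B and 53.5 to 76.6 in MDV-R.

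Members had a median length of 779 nt, against 505 nt for regions in short internal exons and 537 nt for all regions. A member covered a median of 86.9% of its exon, 322 reached past both ends of it, and 552 lay wholly inside. The midpoint was fixed by the rule, so the position of summits in the exon is also a description. Summits were rare near the 3′ end of the exon. Set against the share of exon bases, summits lay within 50 nt of the 3′ end 0.0167 times as often, at 150 to under 200 nt 0.174 times as often and at 200 to under 300 nt 1.86 times as often. At the 5′ end the first 50 nt held 0.602 times their share and the stretch of 150 to under 200 nt 1.65 times. Of the summits inside the exon, 1.87% ± 0.611 (SD, n = 8 lists) were within 200 nt of its 3′ end and 25.6% ± 2.41 within 200 nt of its 5′ end. GGAC itself was not rare near the 3′ end, with 5.23 per kb in the last 200 nt, 4.94 per kb in the first 200 nt and 4.77 per kb over whole exons.

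The depleted stretch at the 3′ end differed between lists and moved with a property of the peak calls. The 5th percentile of the distance from summit to 3′ end was 266, 259, 253 and 240 nt in C4-2B replicates 1 to 4 and 252, 256, 226 and 218 nt in MDV-R. The window over which the peak caller piled up tags, as recovered from the steps of its background, was 293, 285, 285 and 272 nt in C4-2B and 279, 292, 248 and 239 nt in MDV-R. Both were shortest in MDV-R replicates 3 and 4. Over the 8 lists they were related, with Pearson r = 0.978 (exact permutation p = 0.000248, adjusted over 2 relations 0.000496) and Spearman rho = 0.958 (exact permutation p = 0.000694, adjusted 0.00139). Without the 2 lists farthest from the median window, r was 0.890 (exact permutation p = 0.0167). The same percentile at the 5′ end had r = -0.267 with the window (exact permutation p = 0.489, adjusted 0.489) and rho = -0.361 (exact permutation p = 0.375, adjusted 0.375). The part of the window in the rarity of summits near the 3′ end was not tested.

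**Figure D2:**
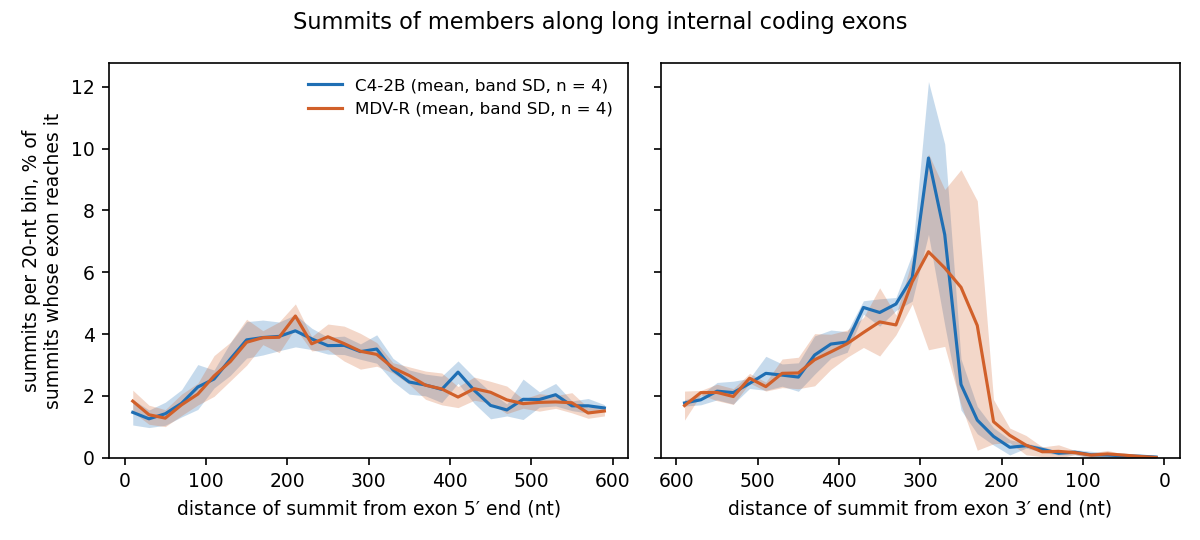
Summits of members per 20-nt bin, as a percentage of the summits whose exon reaches the bin (vertical axis), by distance in nt from the 5′ end (left) and the 3′ end (right) of the exon; lines are means and bands SD of 4 lists per line. Summits were spread over the 5′ side and rare in the last 200 nt, which held 1.87% ± 0.611 of them, next to a peak at 200 to 300 nt from the 3′ end that lay at shorter distances in some MDV-R lists.

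Summits of members lay near GGAC. Within 50 nt on either side, 48.2% ± 1.32 of summits had a GGAC, against 31.2% ± 0.330 of windows of the same width placed 300 nt away in the same exon (SD, n = 8 lists). The difference was 17.0 percentage points ± 1.32, in the same direction in 8 of 8 lists (exact two-sided sign-flip permutation p = 0.00781, the smallest that 8 lists allow). GGAC was within 10 nt of 14.4% of summits, within 25 nt of 30.4% and within 100 nt of 71.0%. Over the 92.6% of summits with a GGAC within 300 nt, the median distance was 45.6 nt ± 1.85. A motif match describes the window and is not a measured site of methylation.

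Members were called in more lists than regions in short internal exons. Of the 2634 members, 2618 were called in 1 list or more, and 1410 (53.9%) were called in all 8 lists, against 25.9% of all regions called in at least 1 list. The corresponding counts were 119 of 1172 regions in internal exons under 400 nt (10.2%), 280 of 728 regions in the coding part of last exons (38.5%) and 3485 of 5955 regions over stop codons (58.5%). Within each list the share of members called exceeded that of regions in short internal exons by 35.5 percentage points ± 10.4 (79.4% against 43.9%), in 8 of 8 lists.

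The measures at the summit had the same order. The median IP signal was 168 ± 11.04 in members and 99.8 ± 9.62 in regions of short internal exons, a ratio of 1.69 (log2 difference 0.75 ± 0.10). The median fold enrichment was 9.07 against 6.64, a ratio of 1.34 (log2 0.42 ± 0.21), and the local background 15.3 against 11.8, a ratio of 1.27 (log2 0.35 ± 0.15). Each held in 8 of 8 lists (exact sign-flip permutation p = 0.00781, adjusted over 14 comparisons 0.00911, SD over 8 lists). The local background thus moved with the IP signal, and its part in the difference was not tested.

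GGAC within 50 nt of the summit did not separate long from short internal exons, with 48.4% and 48.5% (difference -0.05 percentage points ± 2.97, exact sign-flip permutation p = 1, higher in members in 6 of 8 lists). This comparison depended on the window, and within 25 nt members were higher by 3.53 points (exact sign-flip permutation p = 0.00781). It was limited to summits inside an exon of the transcript. In C4-2B replicate 2 these were 378 of the 562 called regions of short internal exons and 2075 of the 2118 called members. Against the coding part of last exons, GGAC was more frequent in members by 9.41 points ± 1.49 and the IP signal was 1.33 times as high, both in 8 of 8 lists (adjusted p = 0.00911 by the same permutation), whereas the fold enrichment had a ratio of 0.997 (adjusted permutation p = 0.968). Against regions over stop codons, members were lower in all 8 lists in IP signal (ratio 0.919), in fold enrichment (0.896) and in the share called (-2.11 percentage points ± 1.41), and higher in background (1.05), each with the same adjusted permutation p of 0.00911.

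**Figure D3:**
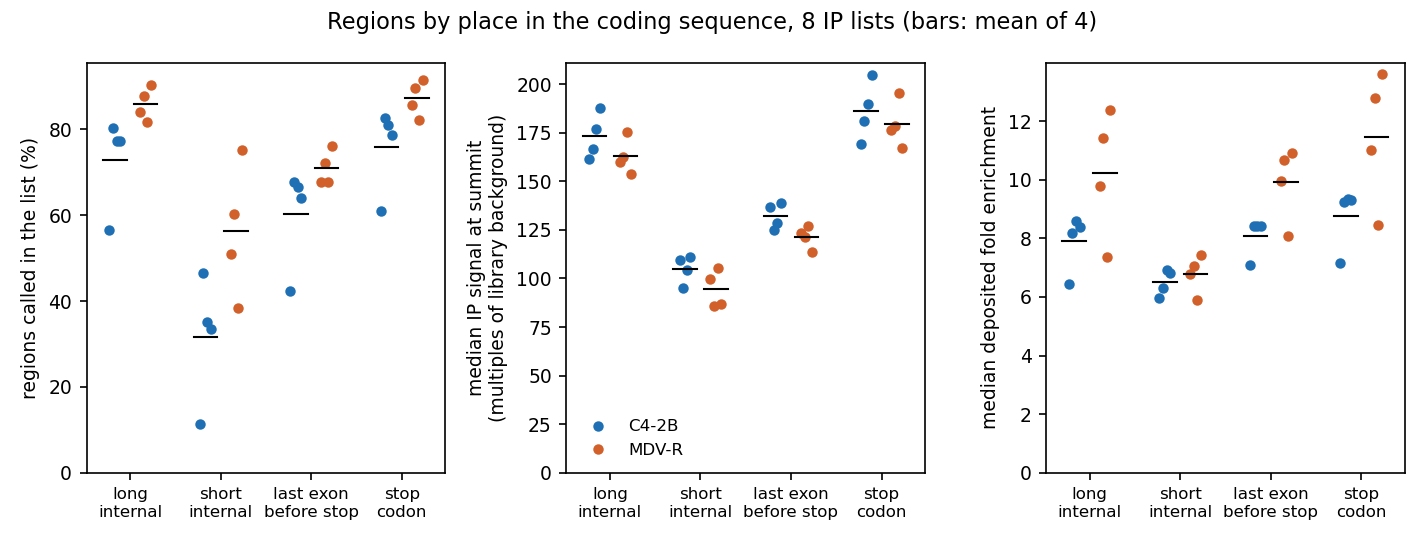
Share of regions called (%), median IP signal (multiples of library background) and median deposited fold enrichment in each of the 8 lists (points; C4-2B blue, MDV-R orange) for 4 places in the coding sequence, with bars at the mean of 4 lists. In IP signal the long internal exons lie between 154 and 188, above the short internal exons in every list and below the regions over stop codons.

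The strongest members, by the mean percentile of −log10 p within lists, were in GPATCH2, NSD1, CHAF1A, USP42, KMT2B, NCOA2, ZC3H18, RAI1, USP10 and GOLGA5. Several of these act on chromatin: NSD1 and KMT2B methylate histone H3, CHAF1A is the large subunit of chromatin assembly factor 1, and RAI1 is a nuclear regulator of transcription. NCOA2 is a coactivator of nuclear receptors including the androgen receptor, USP42 and USP10 are deubiquitinases, and GOLGA5 is a golgin. The IP signal in NSD1 exon 2 was 438, 535, 572 and 615 in C4-2B replicates 1 to 4 and 513, 599.2, 514 and 542 in MDV-R. In GPATCH2 exon 2 it was 572, 678, 733 and 768 in C4-2B and 722, 711, 643 and 639 in MDV-R. The lines overlapped in both members, and neither passed the test in IP signal (limma adjusted p = 0.363 and 0.223). CHAF1A exon 3 did, with 532, 690, 723 and 768 in C4-2B and 566, 535, 500 and 549 in MDV-R (log2 difference -0.41 ± 0.06 SE, limma adjusted p = 4.5e-06); its C4-2B replicate 1 lay inside the range of MDV-R. NCOA2 exon 11 was higher in MDV-R, at 646, 657, 634 and 639 against 380, 514, 514 and 591 (log2 0.30 ± 0.06 SE, limma adjusted p = 0.000136), without overlap.

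More members were called per MDV-R list than per C4-2B list. The share was 56.5, 80.4, 77.3 and 77.2% in C4-2B replicates 1 to 4 and 84.0, 87.8, 81.8 and 90.4% in MDV-R, without overlap. The means were 72.8% ± 11.03 and 86.0% ± 3.82 (SD, n = 4), a difference of 13.2 percentage points with an exact permutation p of 0.0286, the smallest that 4 against 4 allows, and 0.143 after adjustment over 5 measures. C4-2B replicate 1 stood apart, and without it the difference was 7.71 points (exact permutation p = 0.0571). The number of peaks in the lists moved with the share, since the smallest list, with 13191 peaks, was C4-2B replicate 1. Median fold enrichment was 7.89 ± 0.984 in the C4-2B lists against 10.2 ± 2.19 in those of MDV-R (exact permutation p = 0.114), median IP signal 173 ± 11.6 and 163 ± 9.004 (exact permutation p = 0.2), median background 17.8 ± 3.07 against 12.7 ± 5.06 (exact permutation p = 0.114), and GGAC at summits 48.8% ± 0.627 and 48.1% ± 1.88 (exact permutation p = 0.514).

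In all 4 lists of C4-2B and none of MDV-R, 17 members were called (0.649% of the members called at all, against 1.22% of all regions). The reverse, all 4 MDV-R lists and no C4-2B list, held for 62 members (2.37%, against 3.68% of all regions). Both shares lay under the background. Region by region, no region passed Fisher's exact test after adjustment over all regions, with a lowest adjusted p of 0.584, and the smallest Fisher p that 4 against 4 lists allow is 0.0286. Without adjustment, 79 members had a Fisher p under 0.05, and these are the 17 and the 62 again, since no other split reaches it. With so few lists and an adjustment over all regions, the failure to pass does not show that calls were alike in both lines. The counts moved with the libraries: without C4-2B replicate 1, 32 members were called in C4-2B alone, and 108 were called in MDV-R alone without MDV-R replicate 3 and 94 without C4-2B replicate 2. Only 2 of the 17 and 24 of the 62 had another region of the transcript called in all 8 lists, against 62.3% of the members called in all 8, so for most of them these lists do not show whether the transcript was present in the other line. At the summit the 17 had a median of 26 IP tags per list and the 62 a median of 25, against 68 for members called in all 8.

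The members called in C4-2B alone with the highest percentiles were in PGLYRP2, GRIN3A, IGF1R, EPHA6, EPHA5, CACNA1H, PALMD and ALPK2. Several encode membrane receptors or channels: GRIN3A is a subunit of the NMDA glutamate receptor, EPHA5 and EPHA6 are ephrin receptors, and CACNA1H is a T-type calcium channel. In IGF1R exon 2 the IP signal was 134, 184, 190 and 208 in C4-2B replicates 1 to 4. In PGLYRP2 exon 2 it was 142, 190, 215 and 212. Replicate 1 was the lowest in both. In EPHA6 exon 3 the background in C4-2B was 13.3, 31.7, 14.1 and 26.3, well above the library average of 1, whereas in EPHA5 it was at 1.00 in 3 of 4 lists, the lowest value the caller gives.

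Those called in MDV-R alone were in BEST1, a chloride channel, MYT1, AGT, the precursor of angiotensin, GALNT6, an enzyme of mucin glycosylation, CREBBP, a histone acetyltransferase and coactivator, ZFHX2 and PBXIP1, nuclear proteins, and TENM2. BEST1 exon 10 had the highest IP signal of the 3 given here, at 363, 335, 324 and 308 in MDV-R replicates 1 to 4, with a background of 32.2, 26.5, 48.8 and 23.2. In AGT exon 2 the IP signal was 143, 134, 158 and 107. CREBBP held a member in each of 2 exons. Its exon 14 (417 nt) had IP signals of 186, 166, 204 and 187 in MDV-R and no peak in C4-2B, whereas exon 2 was called in all 8 lists, with 244, 312, 331 and 354 in C4-2B and 353, 398, 374 and 375 in MDV-R (log2 difference 0.20 ± 0.06 SE, limma adjusted p = 0.00971).

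For the 1410 members called in all 8 lists, each measure was compared between the lines with limma, fitted on all 9327 regions called in all 8 lists and adjusted over them. IP signal was higher in MDV-R for 350 members (24.8%, against 24.9% of all regions) and lower for 375 (26.6%, against 29.2%). Local background was higher for 88 (6.24%, against 6.62%) and lower for 152 (10.8%, against 9.75%). Fold enrichment was higher for 12 (0.851%, against 0.901%) and lower for 9 (0.638%, against 1.77%). The shares of members were near the background for IP signal, for local background and for higher fold enrichment. Of the 725 members that changed in IP signal, 203 also changed in local background, 201 of them in the same direction, and 522 did not pass the threshold there. The SE was larger for background than for IP signal in the members printed with both. The 522 are thus not shown to be unchanged in background. Median log2 differences of MDV-R over C4-2B were -0.01 in members and -0.02 in all regions for IP signal, -0.04 and 0.01 for background, and 0.11 and 0.03 for fold enrichment. Each list was centred on its median for the fit. The values printed per list are not centred, so a log2 difference can depart from them. Without centring, the median of all regions shifted by over 0.1, to 0.44 in fold enrichment and -0.48 in background, and the counts became 45 higher and 1 lower in fold enrichment and 262 higher and 168 lower in IP signal.

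**Figure D4:**
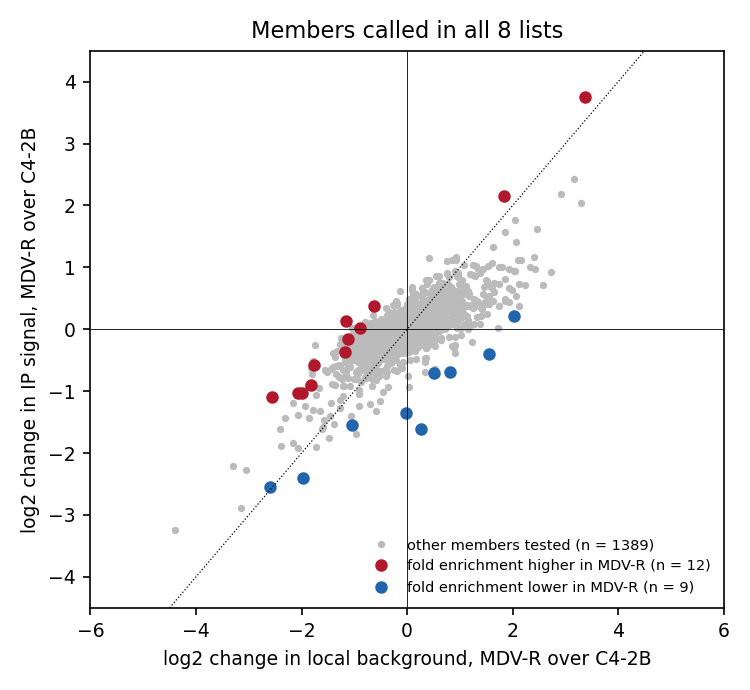
Log2 difference of MDV-R over C4-2B in IP signal (vertical axis) against that in local background (horizontal axis) for the 1410 members called in all 8 lists; red and blue points passed limma's test in fold enrichment, 12 higher and 9 lower in MDV-R, and the dotted line marks equal differences. Higher fold enrichment lies above the bulk of the points at the same background, and lower fold enrichment below it.

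The members with higher fold enrichment in MDV-R included GPR162, an orphan receptor, COLEC12, a scavenger receptor, HJURP, the chaperone of the centromeric histone CENP-A, GASK1A, ZC3H3, a zinc finger protein, ITPRID2, XPO6 and PRUNE2. Of the 12, the estimate of the IP signal was higher for 5 and lower for 7. In GASK1A exon 2 (chr3:43032006-43033405) the fold enrichment was 6.10, 10.2, 11.4 and 8.54 in C4-2B replicates 1 to 4 and 29.3, 29.0, 15.0 and 33.4 in MDV-R, without overlap (log2 1.13 ± 0.24 SE, limma adjusted p = 0.0131). Its IP signal rose from 37.3, 41.6, 45.0 and 34.7 to 183, 236, 181 and 154 (log2 2.15 ± 0.16 SE, limma adjusted p = 2.5e-12), and its background from 3.33, 1.39, 1.00 and 1.00 to 3.03, 5.06, 9.38 and 1.36 (log2 1.84 ± 0.50 SE, limma adjusted p = 0.0227). An unnamed protein-coding gene overlaps the GASK1A summit, as another does that of AHR below, and the lists carry no strand. The GPR162 summit lay outside the long exon of that gene.

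COLEC12 and HJURP had lower IP signal together with a larger drop in background. In COLEC12 exon 5 the IP signal was 291, 422, 395 and 452 in C4-2B and 156, 245, 190 and 184 in MDV-R (log2 -1.09 ± 0.09 SE, limma adjusted p = 1.0e-11). The background there was 123, 68.4, 79.9 and 82.1 in C4-2B and 10.9, 10.1, 24.4 and 4.43 in MDV-R (log2 -2.56 ± 0.25 SE, limma adjusted p = 2.2e-05). The fold enrichment was 2.33, 5.96, 4.80 and 5.32 in C4-2B and 11.3, 18.7, 7.06 and 24.1 in MDV-R (log2 1.26 ± 0.27 SE, limma adjusted p = 0.014). In XPO6 exon 7 the IP signal overlapped between lines, at 303, 321, 398.7 and 406 in C4-2B and 343, 424, 415 and 355 in MDV-R (limma adjusted p = 0.788). Its background was lower in MDV-R, at 20.5, 24.3, 54.4 and 23.5 against 103, 75.7, 63.3 and 59.1 (log2 -0.89 ± 0.20 SE, limma adjusted p = 0.00915), and its fold enrichment higher (log2 0.99 ± 0.25 SE, limma adjusted p = 0.039).

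Lower fold enrichment in MDV-R was found in NAV2, EMILIN1, a glycoprotein of elastic fibres, XYLT2, ZNF608, a zinc finger protein, SIRT4, a mitochondrial sirtuin, AHR, a ligand-activated transcription factor, STARD9, a kinesin, and HIVEP3. In NAV2 exon 7 the IP signal was 124, 149, 164 and 174 in C4-2B and 36.6, 54.2, 52.6 and 73.6 in MDV-R, without overlap (log2 -1.61 ± 0.16 SE, limma adjusted p = 1.6e-09). Its background was 13.3, 3.48, 3.14 and 3.28 in C4-2B and 2.697, 5.06, 3.75 and 4.95 in MDV-R, and C4-2B replicate 1 was the high one. The mean of these values was lower in MDV-R (4.11 against 5.80), whereas the log2 difference after centring of the lists was 0.26 ± 0.52 SE (limma adjusted p = 0.775). The NAV2 fold enrichment was 7.67, 23.5, 26.3 and 26.2 against 6.63, 6.96, 8.32 and 9.28 (log2 -1.68 ± 0.29 SE, limma adjusted p = 0.00595), so that this replicate lay in the range of MDV-R. EMILIN1 exon 4 was alike, with a log2 difference of -1.35 ± 0.19 SE in IP signal (limma adjusted p = 7.8e-07) and of -0.02 ± 0.42 SE in background (limma adjusted p = 0.983).

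XYLT2 exon 2 differed in the other measure. Its IP signal was 87.0, 137, 106 and 115 in C4-2B and 136, 118, 146 and 144 in MDV-R (limma adjusted p = 0.139), whereas its background was 6.63, 6.61, 6.36 and 9.85 in C4-2B and 22.96, 12.1, 41.3 and 17.3 in MDV-R, without overlap (log2 2.04 ± 0.27 SE, limma adjusted p = 0.000224). The fold enrichment was lower by log2 -1.33 ± 0.24 SE (limma adjusted p = 0.00827). Of the 21 members that changed in fold enrichment, 15 also changed in background and 17 in IP signal. These 21 calls were not stable: with fold enrichment computed without the pseudocount of the peak caller, 0 were higher and 1 lower by the same limma fit (124 and 73 at an unadjusted p under 0.05), and without MDV-R replicate 3, 32 were higher and 22 lower.

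**Figure D5:**
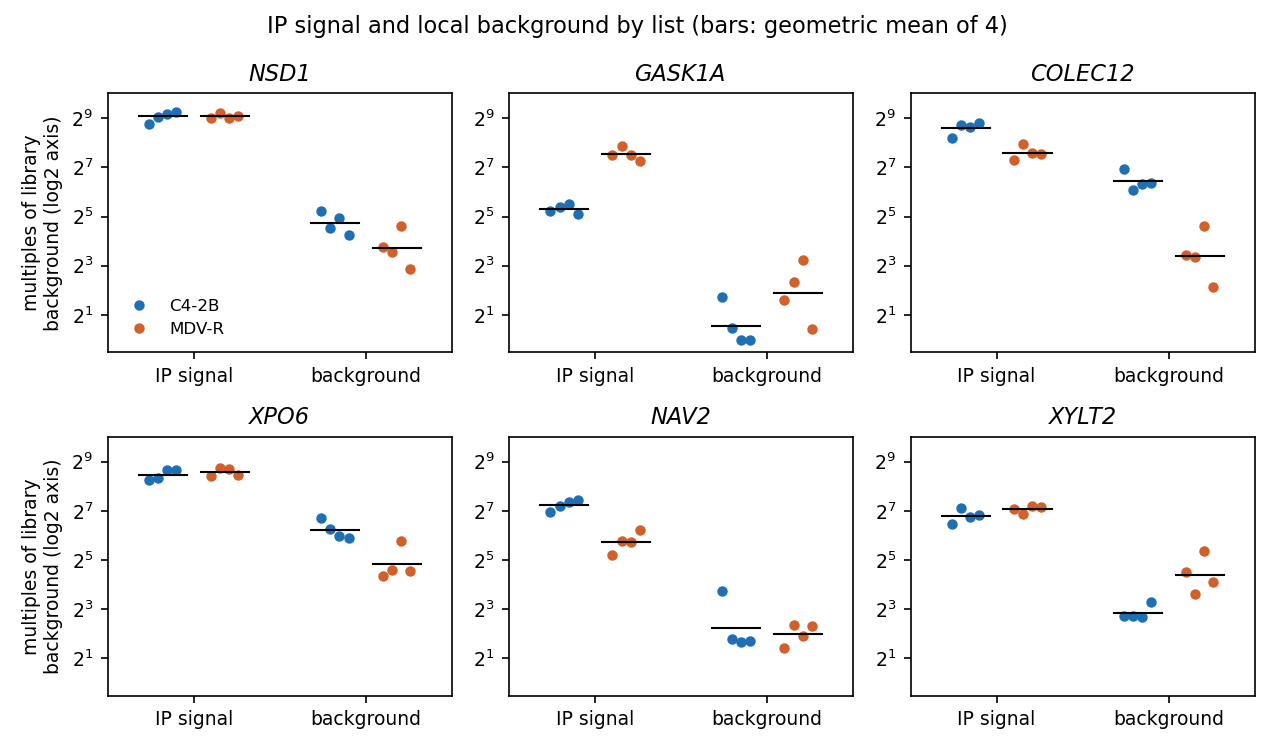
IP signal and local background (multiples of library background, log2 axis) in each of the 8 lists for members in NSD1, GASK1A, COLEC12, XPO6, NAV2 and XYLT2; points are lists (C4-2B blue, MDV-R orange) and bars geometric means of 4. The lines overlap in the IP signal of NSD1, XPO6 and XYLT2 and are apart in that of GASK1A, COLEC12 and NAV2.

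Members were grouped by the function of their gene. Over all genes, 1977 of the 3529 with a long internal coding exon held a member. The lists were chosen with earlier results of these data known. Among 30 genes of DNA repair and replication, 22 had a long internal coding exon and all 22 held a member, 46 members in all. Of the 21 called in all 8 lists, 1 was higher and 12 were lower in IP signal in MDV-R (24.9% and 29.2% of all regions), with a median log2 difference of -0.31 against -0.02 over all regions tested, and 8 were lower in background (9.75% of all regions). The median log2 difference of the 21 was -0.42 in background (0.01 over all regions) and 0.25 in fold enrichment (0.03 over all regions). CLSPN, an activator of the replication checkpoint, changed most of those given here: the IP signal in its exon 3 was 224, 232, 302 and 288 in C4-2B and 113, 124, 111 and 134 in MDV-R, without overlap (log2 -1.19 ± 0.10 SE, limma adjusted p = 2.8e-11). Its background fell by 2.16 on the log2 scale. TICRR exon 20 (log2 -1.14), BRCA2 exon 11 (-0.94) and exon 10 (-0.61) and POLQ exon 16 (-0.49) were lower as well, and exon 13 of REV3L, the catalytic subunit of a translesion polymerase, was higher (0.64).

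Genes of mitosis and the centrosome held members in 20 genes. Of 30 tested, 3 were higher and 18 lower in IP signal (24.9% and 29.2% of all regions, median log2 -0.31), 9 did not pass there, and 2 were higher and 8 lower in background (6.62% and 9.75% of all regions). Their median log2 difference was -0.55 in background (0.01 over all regions) and 0.22 in fold enrichment (0.03 over all regions). MKI67, the proliferation marker, was lower in IP signal in exon 7 (log2 -0.70 ± 0.08 SE), exon 13 (-0.50 ± 0.07) and exon 14 (-0.50 ± 0.07). ASPM exon 18 was lower in IP signal by -0.63 ± 0.11 SE. Each passed limma's threshold. TACC2, which binds centrosomes, was the opposite: its exon 4 had IP signals of 99.5, 190, 186 and 215 in C4-2B and 380, 370, 421 and 418 in MDV-R (log2 1.17 ± 0.10 SE, limma adjusted p = 1.4e-11).

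Chromatin regulators formed the largest list, with 108 members in 50 genes. Of 72 tested, 15 were higher and 8 lower in IP signal (median log2 0.07), and 1 was higher and 3 lower in background. In each direction these shares lay under those of all regions, 24.9% and 29.2% in IP signal and 6.62% and 9.75% in background. JMJD1C exon 10 (log2 0.60 ± 0.08 SE) and KDM6B exon 12 (0.45 ± 0.06), both of the Jumonji family of histone demethylases, were higher. The remodeller CHD7 was lower in exon 2 (-0.76 ± 0.10), exon 3 (-0.73 ± 0.08) and exon 31 (-0.85 ± 0.10). In KMT2C, a histone methyltransferase, 5 exons each held a member called in all 8 lists, with log2 differences from 0.01 to 0.21, and 1 of them, in exon 14, passed the test (0.19 ± 0.08 SE, limma adjusted p = 0.0421).

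Nuclear receptor coregulators had 14 members tested, of which 7 were higher and 1 lower in IP signal (24.9% and 29.2% of all regions; median log2 0.19), and 0 passed in background by limma (4 higher and 1 lower at an unadjusted p under 0.05). NCOA6, a coactivator, was higher in exon 7 (log2 0.37 ± 0.08 SE), exon 9 (0.43 ± 0.07) and exon 11 (0.51 ± 0.08), each past limma's threshold.

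Zinc finger transcription factors held the members with the widest changes in IP signal among these lists. Of 35 tested, 8 were higher and 12 lower in IP signal, against 24.9% and 29.2% of all regions (median log2 -0.14), and 3 were lower in fold enrichment (1.77% of all regions). ZBTB16, a repressor known as PLZF, had IP signals in exon 2 of 482, 630, 653 and 709 in C4-2B and 53.3, 76.5, 67.2 and 80.3 in MDV-R (log2 -3.24 ± 0.10 SE, limma adjusted p = 1.0e-21). Its background went from 55.6, 44.5, 44.7 and 58.1 to 1.35, 3.03, 1.40 and 1.48 (log2 -4.39 ± 0.40 SE, limma adjusted p = 1.1e-05), and its fold enrichment did not pass (limma adjusted p = 0.919). ZNF608 was lower in exon 2 (log2 -2.55 ± 0.16 SE) and exon 5 (-2.40 ± 0.17 SE). TRPS1, a GATA-type repressor, was higher in exon 3 (2.04 ± 0.12 SE), exon 4 (2.19 ± 0.15 SE) and exon 5 (1.77 ± 0.09 SE), with backgrounds higher by 2.05 to 3.29.

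RNA processing genes had 2 members higher and 4 lower in IP signal of 16 tested (24.9% and 29.2% of all regions, median log2 -0.07), with TNRC6C exon 5, of the microRNA silencing complex, at 0.72 ± 0.08 SE. The median log2 difference of the 16 was -0.40 in background and 0.35 in fold enrichment. ZC3H13, a partner of the m6A methyltransferase itself, had 4 exons with a member called in all 8 lists, and 3 of them were lower, by -0.19 to -0.48. Receptors and adhesion proteins held 21 members in 14 of 20 genes with a long internal exon (1977 of 3529 over all genes). Of 6 tested, 1 was lower in IP signal (29.2% of all regions). Cytoskeleton and scaffold proteins held 70 members in 24 genes. Of these members 8 were called in MDV-R alone, against 2.37% of members and 3.68% of regions called in any list. Several of the 8 lay in exon 37 of MACF1 and are not independent of each other. Of 19 tested, 5 were higher and 3 lower in IP signal (24.9% and 29.2% of all regions). Of the 10 prostate luminal markers, 2 held a member. SLC45A3 was lower in MDV-R in exon 3, with 229, 306, 302 and 313 in C4-2B and 120, 92.4, 102 and 141 in MDV-R (log2 -1.43 ± 0.11 SE, limma adjusted p = 4.3e-12), and its background was lower too (-2.31 ± 0.31 SE). STEAP2, a metalloreductase, held a member in exon 4 (528 nt) that was called in all 4 MDV-R lists, with IP signals of 163, 169, 169 and 147, and in 0 of C4-2B, so that it was not tested in IP signal. Fold enrichment passed limma's threshold for 0 members of the DNA repair, mitosis, chromatin, coregulator, RNA processing and receptor lists. At an unadjusted p under 0.05 the numbers higher and lower were 3 and 0, 6 and 1, 3 and 0, 0 and 0, 4 and 1, and 1 and 0 in that order.

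Of the 1977 genes with a member, 1108 (56.0%) also held a region over the stop codon. In 447 genes, a member and a region over the stop codon were both called in all 8 lists, and they were compared between the lines on the same libraries. Members passed the test in IP signal in 231 of these genes and regions over stop codons in 236. The median absolute gap between the log2 differences at both places was 0.15. In ZBTB16 the log2 difference was -3.24 in the member and -2.52 over the stop codon, and in TRPS1 1.77 and 2.02. The genes that follow were picked, after their values were seen, because the places were unlike. In PARP10, a mono-ADP-ribosyltransferase, the member was at -2.89 (limma adjusted p = 1.1e-17) and the stop codon at -0.21 (limma adjusted p = 0.13). Its exon 5 went from IP signals of 239, 303, 325 and 337 in C4-2B to 36.6, 38.2, 46.7 and 50.2 in MDV-R, with the background at -3.15. In EMILIN1 the member was at -1.35 and the stop codon at -0.02.

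PCNX2, ALG11 and TUBGCP6 were the only 3 of the 447 genes in which both places passed limma's test in IP signal in opposite directions. PCNX2 had log2 differences of 0.38 in the member and -0.73 over the stop codon, with backgrounds at 0.99 and -1.06. TUBGCP6, a subunit of the gamma-tubulin complex, had 0.49 and -0.77, and its exon 16 had IP signals of 162, 158, 190 and 195 in C4-2B and 270, 268, 254 and 251 in MDV-R, without overlap. ALG11, a mannosyltransferase, had -0.38 and 0.25. The difference between both places within a gene was not tested.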

How the data were processed

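MeRIP-seq libraries of C4-2B and MDV-R cells (4 IP and 4 input each) were grouped by the cell line their labels state. Per the labels and the methods, RNA was fragmented to about 100 nt, reads were aligned by the authors to hg38 with STAR 2.7.0 and GENCODE release 39, uniquely mapped reads without duplicates were kept with SAMtools 1.10, and peaks were called per replicate over input with MACS2 (3.0.0a6 in the submitters' processing notes), with no fragment model, 100 nt as the stated extension and 300 Mb as genome size. Each deposited list gives per peak a summit, the ratio of IP over background (fold enrichment), a score and, on a −log10 scale, the p-value and the q-value. The deposited merged list gives positions alone, and how it was made is not given in the sources used here. Read counts were not analysed here, and the authors' DEQ test, which used DESeq2, edgeR and QNB, was not run.

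IP tags and local background at each summit were recovered from the deposited fold enrichment and −log10 p, with the caller's pseudocount of 1. The window per tag that the background steps gave was 239 to 293 nt, not the stated 100 nt, so library sizes are a reconstruction. The lowest list held 13191 peaks. Precision is limited by the number of lists, and with peaks alone no depth is known where no peak was called.

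Members were placed with GENCODE release 44 on hg38; 194 of 2634 members also met an exon of another gene, and 93 of them that of another protein-coding gene, and the lists carry no strand. Called means an overlap of 1 bp or more. GGAC was searched in the spliced transcript, 50 nt to either side of the summit, and GGAC and DRACH (A, G or T, then A or G, then A, C and A, C or T) were counted on that strand only. Coordinates are 1-based. Lines were compared by exact permutation, two-sided (70 arrangements), parts of the coding sequence with exact sign flips over 8 lists (256), single regions with Fisher's exact test, and regions called in all 8 lists with limma 3.58.1 (lmFit, eBayes with trend) on log2 values centred per list, all with Benjamini-Hochberg adjustment and a threshold of 0.05. The strongest peak by −log10 p stood for a region. limma was tested on simulated data. The recovery was checked on the deposited peaks: it solved 100% of them in each list, against 3.84 to 7.13% with the tags set to a wrong scale. Python 3.11.15, bedtools 2.31.1 and R 4.3.3 were used.

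Members, gene lists and comparisons were chosen with earlier results of these data known. Named were the 10 members with the highest mean percentile of −log10 p, the 8 highest per line among those called in a single line, the 8 largest changes in fold enrichment per direction, the 6 exons with most members and the genes of the lists, 1 member per gene except where several exons are given; PARP10 and the genes with opposite changes were added after their values were seen. The alternatives tried were a stricter −log10 q (5 or more), lists cut to as many peaks as the smallest holds, an overlap of 50%, no centring, no pseudocount, another choice of peak, windows of 25 nt, DRACH, short exons of 200 nt or more, the replicate number as a block and leaving out each library.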

Additional observations from a re-analysis of the deposited data

Results flagged for a closer look

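In groups of 4 lists, a value was singled out where its gap to the nearest other list took nearly all of the range of the group. Of 214 such groups examined, 16 were singled out. Chance alone gives about 1 in 20 for independent groups of normal values. These groups shared lists and members, and where other lists lay at the lowest background any higher value stood out. Their causes were not tested.

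C4-2B replicate 1 called 56.5% of the members, against 77.2 to 80.4% in the other C4-2B lists, and its median local background at members was 22.4, against 16.01 to 16.5. In NAV2 exon 7 the same replicate had a fold enrichment of 7.67, against 23.5 to 26.3, and a background of 13.3, against 3.14 to 3.48. In GASK1A exon 2 its background was 3.33, against 1.00 to 1.39.

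C4-2B replicate 3 had a background of 2.75 in CACNA1H exon 9 and of 3.14 in EPHA5 exon 3, with the other 3 lists at 1.00 in both, and of 4.71 at GPR162, against 1.00 to 1.39. Its fold enrichment in ZC3H3 exon 2 was 9.42, against 3.62 to 3.99. C4-2B replicate 4 had a background of 9.85 in XYLT2 exon 2, against 6.36 to 6.63.

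MDV-R replicate 3 had the high background in PRUNE2 exon 8 (43.3, against 15.4 to 18.6), in XPO6 exon 7 (54.4, against 20.5 to 24.3) and in NCOA2 exon 11 (45.0, against 21.03 to 22.6), where its fold enrichment was 13.3, against 25.05 to 26.4. MDV-R replicate 4 had the high fold enrichment at GPR162 (53.6, against 22.9 to 27.9) and in HJURP exon 8 (29.3, against 10.3 to 11.6).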

How the results depend on the processing

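For 15 results, 191 values were recomputed under alternatives, and 154 kept their direction and side of the threshold, or for counts stayed within 1.5 times. The higher share called, IP signal, fold enrichment and background of long against short internal exons, and GGAC at summits against windows of the same exon, did so under all alternatives run for them. GGAC in long against short internal exons turned to 3.53 points within 25 nt, to 5.73 for DRACH and to 3.597 in genomic windows (exact sign-flip permutation p = 0.00781, 0.00781 and 0.0234), the last chosen after seeing the data.

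The share called per list, MDV-R against C4-2B, ranged from 7.71 to 15.7 points without single libraries (exact permutation p = 0.0286 to 0.0571). With every list cut to its strongest 13191 peaks, 30 members were called in C4-2B alone and 35 in MDV-R alone, and without single libraries 17 to 32 and 62 to 108. Members higher in fold enrichment numbered 6 and lower 1 in these shortened lists, 45 and 1 without centring, 0 and 1 without pseudocount, and 4 to 32 and 3 to 22 without single libraries (32 and 22 without MDV-R replicate 3, 4 and 3 without MDV-R replicate 4). Without C4-2B replicate 1, 9 and 7 were called, of which 2 and 5 were among the 12 and 9. Higher fold enrichment was called for 7, 7 and 5 members without C4-2B replicates 2, 3 and 4 and for 5 and 7 without MDV-R replicates 1 and 2. IP signal was lower in 168 members without centring, and without single libraries higher in 309 to 386 and lower in 328 to 404. Background was higher in 22 without centring, and without single libraries higher in 44 to 87 (44 without MDV-R replicate 1, 53 without replicate 2, 57 without replicate 4) and lower in 107 to 178.

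Replicate numbers did not pair the samples: deviations of same-numbered lists correlated at -0.0054, 0.025, -0.075 and 0.019. With the replicate number as a block, the difference in share called was 13.2 points (exact permutation p = 0.125, the smallest 4 pairs allow) and 7 members were higher in fold enrichment, and 8 lower. The block gave 355 and 368 members for IP signal and 85 and 148 for background.

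Counts of tags limit weak members, with medians of 25 and 26 tags in members called in a single line, and an absent call is no measured absence.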
